A study of Mus musculus with 5 samples.

Results

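The 10 genes described here encode the machinery through which fibrates act on transcription in liver. They are the peroxisome proliferator-activated receptor genes Ppara, Ppard and Pparg, the retinoid X receptor genes Rxra, Rxrb and Rxrg of their binding partners, the coactivator genes Ppargc1a, Ppargc1b and Lpin1, and Creb3l3, a transcription factor gene of the fasting liver. They were chosen by symbol out of 19938 genes that had a probe set with exactly 1 gene symbol. Ppargc1a was the only one of the 10 with more than 1 such probe set, and the brighter on average was used as its main value. All 10 were measured and tested. Total RNA of the liver of 5 male mice was hybridised to Affymetrix whole-transcript arrays, 1 array per mouse. The mice were C57BL/6N of wildtype genotype, 5 to 6 months old. Each had received streptozotocin, a toxin of the insulin-producing beta cells that is used to induce diabetes, at 65 mg/kg on 5 days at 10 to 16 weeks of age. Each was then fed bezafibrate, a fibrate that activates PPARs, for 8 weeks from 2 weeks after the toxin. The protocol names food with 0.25% and with 0.5% bezafibrate and does not assign them to mice. Animals without either compound were not analysed here, so the comparison is between 5 mice of 1 group, in which the amount of bezafibrate may differ, and no value below is an effect of streptozotocin or of bezafibrate.

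PPARs are nuclear receptors that fatty acids and fibrates can bind. Each pairs with an RXR on DNA, at direct repeats of the hexamer AGGTCA, and recruits coactivators once a ligand is bound. PPARA is the main form in hepatocytes, where it drives fatty acid oxidation and ketone production in fasting. PPARD is expressed in most tissues, and PPARG is the regulator of fat cells that can also appear in fatty liver. PGC-1 alpha and PGC-1 beta (Ppargc1a and Ppargc1b) are coactivators without DNA binding of their own. Lipin 1 (Lpin1) makes diacylglycerol as an enzyme and joins PGC-1 alpha and PPARA in the nucleus as a coactivator. CREB3L3 is held in the membrane of the endoplasmic reticulum until proteases release it, and it acts with PPARA on genes such as Fgf21.

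Lpin1 and Pparg had the largest spread of the 10 genes, and the windows before their start sites are shown here as the sequence context of these genes. The windows hold the 250 bases before each RefSeq start (assembly GRCm38.p6), written 5′ to 3′ on the strand of the gene, with AGGTCA or its reverse complement in capitals. RefSeq gave 1 start for Lpin1, at chr12:16610967-16611216 on the minus strand. It gave 3 for Pparg, at chr6:115360894-115361143, chr6:115362099-115362348 and chr6:115421816-115422065 on the plus strand. Each gene has 1 value per mouse here, so transcripts from different starts are not told apart.
Lpin1: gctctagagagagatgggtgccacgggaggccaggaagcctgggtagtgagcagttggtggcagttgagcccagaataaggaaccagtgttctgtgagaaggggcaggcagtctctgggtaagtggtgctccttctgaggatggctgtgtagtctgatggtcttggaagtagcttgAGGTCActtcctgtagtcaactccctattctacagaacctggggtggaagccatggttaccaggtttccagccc
Pparg, start 1: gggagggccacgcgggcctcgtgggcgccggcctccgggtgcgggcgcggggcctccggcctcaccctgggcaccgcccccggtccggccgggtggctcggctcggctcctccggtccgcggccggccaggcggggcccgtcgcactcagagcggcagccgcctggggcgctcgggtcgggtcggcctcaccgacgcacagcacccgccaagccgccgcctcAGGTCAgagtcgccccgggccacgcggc
Pparg, start 2: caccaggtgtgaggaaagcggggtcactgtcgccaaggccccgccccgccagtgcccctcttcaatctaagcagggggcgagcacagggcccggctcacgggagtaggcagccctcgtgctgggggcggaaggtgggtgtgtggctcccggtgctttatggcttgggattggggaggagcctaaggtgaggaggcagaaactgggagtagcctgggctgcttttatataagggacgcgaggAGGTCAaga
Pparg, start 3: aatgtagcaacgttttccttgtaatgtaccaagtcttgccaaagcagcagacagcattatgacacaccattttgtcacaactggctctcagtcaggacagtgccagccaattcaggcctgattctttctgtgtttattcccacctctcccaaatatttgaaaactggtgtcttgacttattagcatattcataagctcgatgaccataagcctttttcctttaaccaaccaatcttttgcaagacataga

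The Lpin1 window held 1 match, 74 bases before the start, and starts 1 and 2 of Pparg held 1 each, 28 and 9 bases before the start, whereas start 3 held none. RefSeq gave 15 such windows for 9 of the 10 genes. AGGTCA was found on either strand in 6 of the 15, in windows of Creb3l3, Lpin1, Pparg, Rxra and Rxrg, and in 14.0% of all 32851 windows of the table. The direct repeat of the PPAR and RXR pair, this hexamer written again after 1 base of any kind, was in 0 of the 15 and in 0.0335% of all windows. The cAMP response element TGACGTCA was in 0 of the 15 and in 1.55% of all. These letters describe the windows alone, and other start sites or distant sites were not searched.

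All 10 genes were above the brightness floor in all 5 livers, as were 60.0% of all genes. The floor was set on each array at the 95th percentile of genes for smell and pheromone receptors (1212 probe sets) and lay between 5.58 and 6.07 on the deposited log2 scale. The label says liver, and 10 of 10 measured hepatocyte markers, such as Alb (albumin, mean 13.64) and Ttr (transthyretin, mean 13.29), were above the floor in all mice. Array medians lay between 6.22 and 6.31. The array of mouse 4 stood apart in 2 ways. It had the highest floor (6.07, against 5.58 to 5.79 in the others) and was the brightest for 76.0% of the receptor probe sets, while the median deviation of tested genes from their mean over mice was -0.06 there and between -0.01 and 0.03 on the other arrays. Since brightness also depends on the probes, levels are compared between mice and never between genes.

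The spread of these transcripts between the 5 livers was not below that of tested genes in general. The span, the highest over the lowest mouse, was 1.09-fold for Rxra and 1.58-fold for Lpin1, and the other 8 genes lay between these. The median span of the 10 genes was 1.27-fold, against 1.22-fold over tested genes. The median SD of the 10 genes was 0.14, against 0.12 over 13339 tested genes. The variance of each gene was compared with that expected at its level by an upper-tail F test in limma, with Benjamini-Hochberg adjustment over 14589 probe sets. By this test 0 of 10 genes passed 0.05, a threshold that 0.285% of tested genes passed. At an unadjusted p under 0.05 there were 2 of 10, Lpin1 and Pparg, against 6.38% of tested genes. Mouse 1 was the highest for 5 of the 10 genes and the lowest for 0, against 23.9% and 11.6% of tested genes. Mouse 4 was the lowest for 4 of the 10 and the highest for 1, against 36.5% and 8.47%. Mouse 2 and mouse 3 were each the highest for 2 and the lowest for 2, against 25.5% and 22.9% highest and 11.4% and 18.9% lowest among tested genes. Mouse 5 was the lowest for 2 and the highest for 0, against 21.6% and 19.2%. The SD exceeded the expected SD in 6 of 10 genes, against 47.0% of tested genes. Each liver was measured once, so array error is part of the spread, and a p that misses the threshold does not show that the mice were equal.

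**Figure D1:**
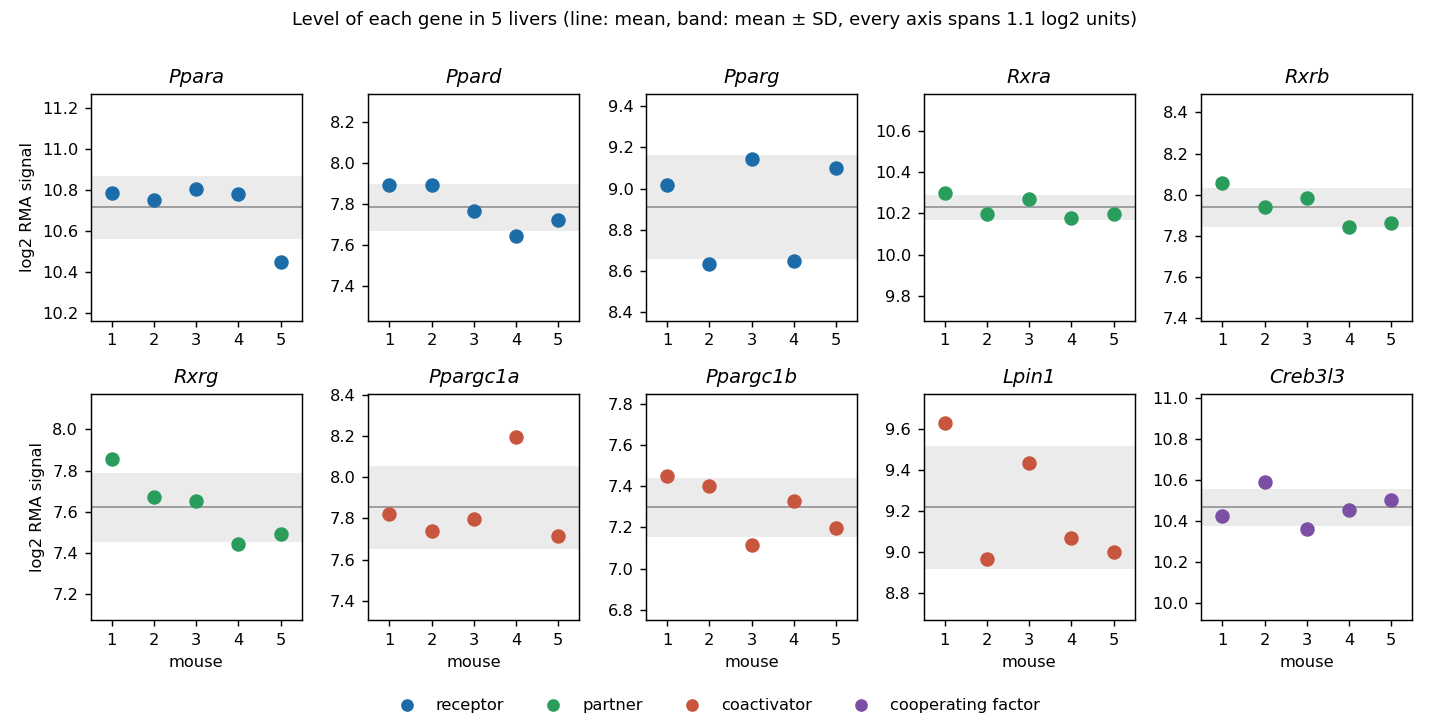
Log2 RMA signal (y axis) of each of the 10 genes in mice 1 to 5 (x axis, mouse numbers are names without order). Points are single livers, the line is the mean and the band the mean ± SD (n = 5), and all panels have a y axis of the same length. Ppara is low in mouse 5, Ppargc1a high in mouse 4, and Lpin1 high in mice 1 and 3, whereas the Rxra points span 1.09-fold.

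Ppara, the receptor of hepatic fatty acid oxidation, was nearly level in 4 livers and lower in 1. Its values were 10.79 in mouse 1, 10.75 in mouse 2, 10.80 in mouse 3, 10.78 in mouse 4 and 10.45 in mouse 5. Mouse 5 thus lay apart, and the gap to its nearest neighbour took up 0.856 of the whole range, a share above Dixon's critical value of 0.71 for 5 samples. Of the 10 genes, 2 had such a gap, against 5.65% of tested genes. The mean was 10.71 ± 0.15 (SD, n = 5), 1.52 times the expected SD (limma adjusted p = 0.992, unadjusted 0.167). Without mouse 5 the SD was 0.0211, so mouse 5 set the spread of Ppara. It was lowest in mouse 5 under all 4 scalings of the arrays, while the highest mouse changed between mice 1, 3 and 4.

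Ppard, the form found in most tissues, showed a narrow range. Its values in mice 1 to 5 were 7.89, 7.89, 7.77, 7.64 and 7.72, with a mean of 7.78 ± 0.11 (SD, n = 5). Mice 1 and 2 were highest and mouse 4 lowest, within a 1.19-fold span. The SD was 0.861 times that expected (limma adjusted p = 0.992).

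Pparg, the receptor of fat cells, split the livers into higher and lower values. It was 9.02 in mouse 1, 9.14 in mouse 3 and 9.10 in mouse 5, but 8.64 in mouse 2 and 8.65 in mouse 4. The mean was 8.91 ± 0.25 (SD, n = 5), with a 1.42-fold span and an SD 2.14 times that expected. It did not pass over all probe sets (limma adjusted p = 0.770, unadjusted 0.0466). No single mouse carried this spread, since the SD stayed between 0.23 and 0.28 when any 1 mouse was left out. Markers of Kupffer cells and macrophages, which can express Pparg, were also lowest on average in mice 2 and 4. Over mice 1 to 5 their 13 tested genes deviated on average by 0.35, -0.17, -0.04, -0.22 and 0.07, so mouse 1 was the highest here, unlike for Pparg. All but 1 of the 13 were above the floor in every mouse. Their part in the Pparg values was not tested. In whole liver, fewer cells of a type and less RNA per cell cannot be told apart. Fat cell markers (5 tested of 7 measured) deviated by -0.01, -0.04, 0.15, -0.06 and -0.04 in mice 1 to 5, and lymphocyte markers (3 tested of 9 measured) by 0.09, -0.13, 0.15, -0.13 and 0.02. By these means both lists were highest in mouse 3, as Pparg was. The mean of the lymphocyte markers was lowest in mice 2 and 4, as Pparg was, but its 3 genes differed. Cd79b was highest in mouse 3, Ptprc in mouse 1 and Cd3e in mouse 5. In mouse 4 Cd3e lay above its own mean (0.05), and in mouse 2 Cd79b was near its own (-0.02). The mean of the fat cell markers was about as low in mouse 5 as in mouse 2, whereas Pparg was high in mouse 5. Its genes went different ways in mouse 5. Fabp4 was highest there (0.26), Slc2a4 was at its own mean, and Plin1 (-0.24), Lipe (-0.12) and Retn (-0.09) were below theirs. The part of both lists in the Pparg values was not tested either. Over the 5 mice the mean level of the measured fat cell markers lay between 6.60 and 6.75 and that of the lymphocyte markers between 5.45 and 5.74. In all mice 4 of 7 and 3 of 9 were above the floor, and the fat cell markers Adipoq (adiponectin, mean 3.98 ± 0.13, SD, n = 5) and Lep (leptin, 5.27 ± 0.16) were below it.

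The RXR genes, whose products serve as partners of PPARs and of other nuclear receptors, shared their highest and their lowest liver, with small differences. Rxra, the main hepatic form, was the most even of the 10 genes, with 10.30, 10.20, 10.27, 10.18 and 10.20 in mice 1 to 5, a mean of 10.23 ± 0.05 (SD, n = 5) and an SD 0.525 times that expected. Rxrb was 8.06, 7.94, 7.98, 7.84 and 7.86 (mean 7.94 ± 0.09), a 1.16-fold span. Rxrg, a form known from muscle and brain, was 7.86, 7.67, 7.65, 7.44 and 7.49 (mean 7.62 ± 0.16), a 1.33-fold span. None of the 3 passed (limma adjusted p of 0.992 for Rxrb and Rxrg and 0.996 for Rxra, unadjusted 0.275 to 0.884).

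All 3 RXR genes were highest in mouse 1 and lowest in mouse 4, an order shared by 12.1% of tested genes. Mouse 4 was lowest for 36.5% of tested genes. When each array was centred on the median deviation of the tested probe sets, a scaling added after the data were seen, mouse 1 remained the highest for the 3 genes, but the lowest was mouse 2 for Rxra and mouse 5 for Rxrb and Rxrg. Among the 45 pairs of the 10 genes, Rxra and Rxrb were the most alike, with a root mean square difference of 0.0372 between their deviations over the 5 mice, and Pparg and Ppargc1a the least alike (0.347). Skeletal muscle markers were highest in mouse 1 as well. The 6 tested of 11 deviated by 0.45, -0.18, -0.05, -0.05 and -0.16 on average in mice 1 to 5, with Mb (myoglobin) spanning 1.91-fold. Of the myosin genes of fast fibres in the list, Myh4 stayed below the floor in all mice (5.13 ± 0.13, SD, n = 5). Myh1 (5.73) and Myh2 (5.72) were above the floor in mouse 1 alone, where it lay at 5.58. The 11 tested stellate cell markers deviated by 0.11, -0.05, -0.01, -0.05 and 0.01 on average in mice 1 to 5. In mouse 1 Des (0.30), Pdgfrb (0.26) and Reln (0.25) lay farthest above their own means. Lrat (0.01) and Hgf (0.02) were near theirs, and Rgs5 was below its own (-0.05). Whether muscle or stellate cells contributed to Rxrg was not tested.

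**Figure D2:**
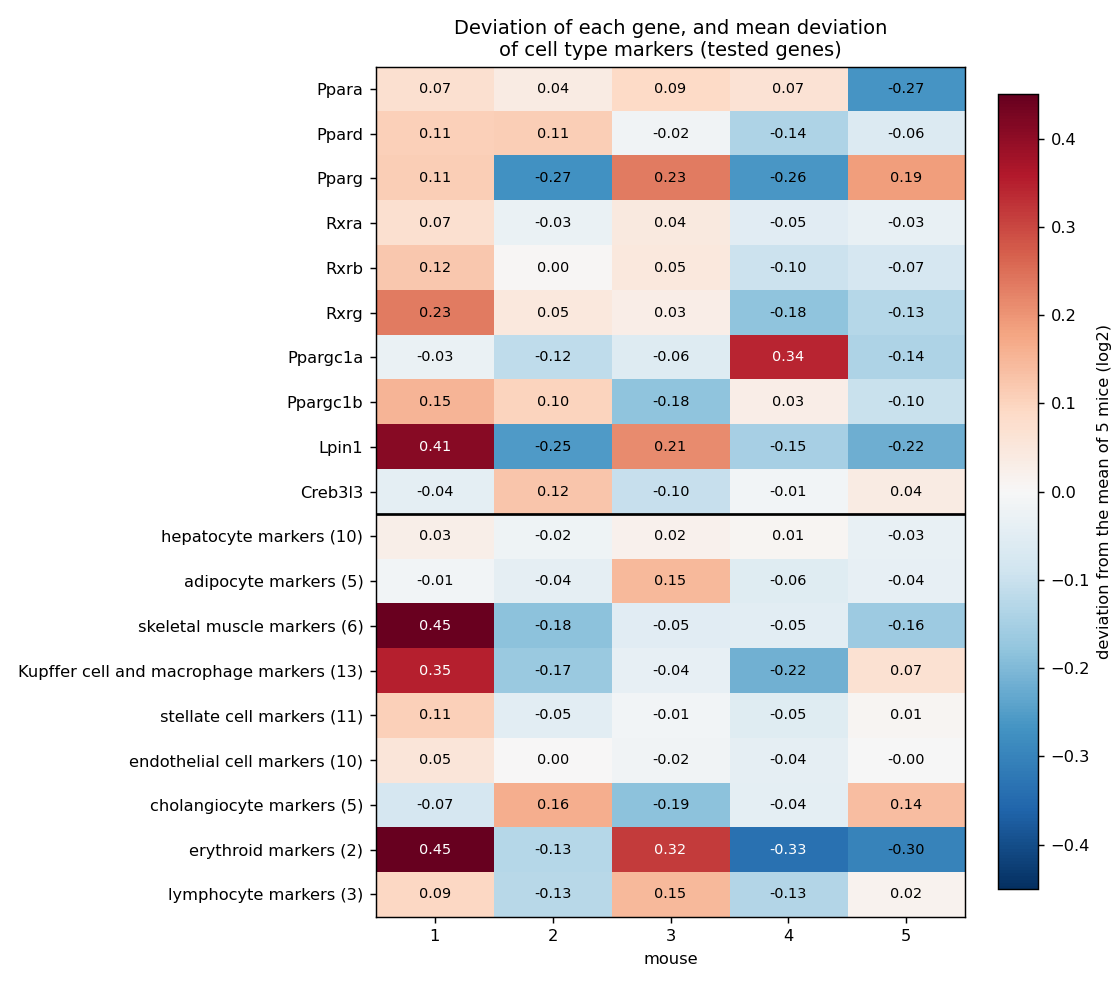
Deviation of each of the 10 genes from its own mean over 5 mice (log2 units, colour and printed value; columns are mice) and, below the line, the mean deviation of the tested markers of 9 cell types, with their number in parentheses. The 3 RXR rows share their highest value in mouse 1 and their lowest in mouse 4, and skeletal muscle (0.45), Kupffer cell (0.35) and erythroid (0.45) markers are also highest in mouse 1.

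Ppargc1a, the coactivator induced by cold, exercise and fasting, was set apart by 1 liver. Its main probe set (10529979) was 7.82, 7.74, 7.80, 8.20 and 7.72 in mice 1 to 5, a mean of 7.85 ± 0.20 (SD, n = 5) and a 1.40-fold span. Mouse 4 was highest and its gap took up 0.774 of the range. The other probe set of the gene (10529977), close to the floor, was also highest in mouse 4, with 6.16, 6.07, 5.95, 6.37 and 5.91. The variance did not pass in either (limma adjusted p = 0.991 and 0.992, unadjusted 0.153 and 0.192). Without mouse 4 the SD of the main probe set was 0.0504. The receptor probe sets were brighter on the array of mouse 4, by a median of 0.25 over their mean, so probe sets of like level are given beside this result. Among 1679 tested probe sets within 0.25 of the mean of the main probe set, 4.76% were highest in mouse 4, with a median deviation there of -0.09, against 0.34 for Ppargc1a. Among 2170 within 0.25 of the dimmer probe set, 16.9% were highest in mouse 4, with a median deviation there of -0.03, against 0.28 for Ppargc1a. The genes most like Ppargc1a over the mice, given below, had means close to the floor. The part of the array of mouse 4 in the Ppargc1a values was not tested.

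Ppargc1b, the coactivator tied to mitochondrial and lipogenic genes, was 7.45, 7.40, 7.12, 7.33 and 7.20 in mice 1 to 5. The mean was 7.30 ± 0.14 (SD, n = 5), 1.07 times the expected SD (limma adjusted p = 0.992), and mouse 3 was lowest, within a 1.26-fold span.

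Lpin1 had the widest spread of the 10 genes. It was 9.63 in mouse 1, 8.96 in mouse 2, 9.43 in mouse 3, 9.07 in mouse 4 and 8.998 in mouse 5. Mice 1 and 3 were thus high and mice 2, 4 and 5 close to each other. The mean was 9.22 ± 0.29 (SD, n = 5), the span 1.58-fold and the SD 2.62 times that expected, which did not pass over all probe sets (limma adjusted p = 0.524, unadjusted 0.0185). The SD lay between 0.21 and 0.33 with any 1 mouse left out, and mouse 1 was highest under all 4 scalings. The erythroid markers Alas2 and Slc4a1, 2 tested of 3 measured, were also highest in mouse 1 and next in mouse 3, with mean deviations of 0.45 and 0.32. In mouse 3 Alas2 deviated by 0.545 and Slc4a1 by 0.086. The marker that was measured but not tested, Epb42, deviated by 0.02 in both mice. The part of erythroid markers in the Lpin1 values was not tested.

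Creb3l3, the factor released by proteolysis, was 10.43, 10.59, 10.36, 10.45 and 10.50 in mice 1 to 5, with a mean of 10.47 ± 0.09 (SD, n = 5). Mouse 2 was highest and mouse 3 lowest, within a 1.17-fold span (limma adjusted p = 0.992).

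**Figure D3:**
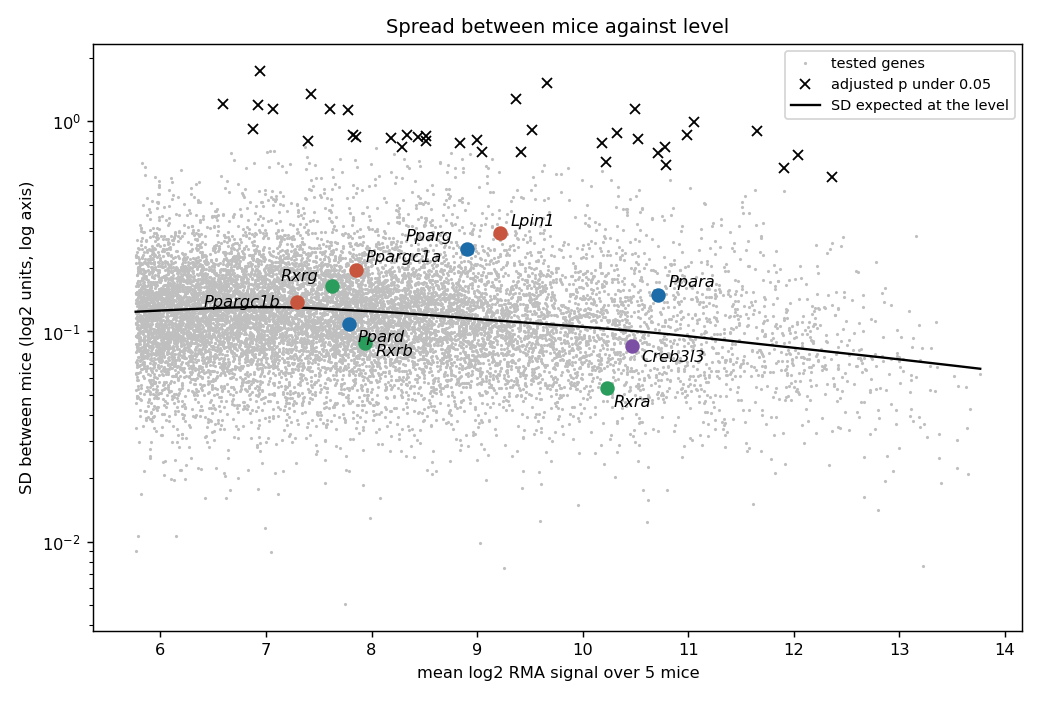
SD between 5 mice (y axis, log2 units on a log axis) against the mean log2 RMA signal (x axis) for 13339 tested genes in grey. The black line is the SD expected at each level, crosses mark the 38 genes with a limma adjusted p under 0.05, and the 10 genes are coloured by role (blue receptors, green partners, red coactivators, purple Creb3l3). All 10 lie below the crosses, from Rxra (SD 0.05) under the line to Lpin1 (SD 0.29) above it.

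The 10 genes are set here against 10 lists of related pathways. These held 196 distinct genes, of which 178 were measured and 173 tested. Of the 173, 3 passed (Acot5, Pdk4 and Apoa4, limma adjusted p of 0.0102, 0.0102 and 0.0220), and 39 had an unadjusted p under 0.05, against the 0.285% and 6.38% of all tested genes given above. Each of the 3 calls was lost when a single mouse was left out. None of the 3 passed without mouse 4 (limma adjusted p between 0.0883 and 0.143), Acot5 and Apoa4 did not pass without mouse 2 (0.0506 and 0.0530), and Acot5 and Pdk4 did not pass without mouse 3 (0.0540 and 0.0824). A gene can belong to more than 1 list. The counts of each list below are to be read against the same shares, 0.285% past the threshold and 6.38% at an unadjusted p under 0.05 in limma.

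Of 48 target genes of PPARA 42 were measured and tested, and 2 passed. Acot5, a peroxisomal thioesterase gene, spanned 6.48-fold, and Pdk4, which restrains glucose oxidation, spanned 4.61-fold, against 1.28-fold for Ppara. The unadjusted p in limma was under 0.05 in 10 of 42, against 6.38% of tested genes. The median SD was 0.11, against 0.12 for all tested genes. Relative to the SD expected at their level, the median was 1.34, against 0.965 for all tested genes. Mouse 2 was highest for 23 of the 42 (25.5% of tested genes) and mouse 3 lowest for 17 (18.9%). In mouse 5, where Ppara was lowest, the targets deviated by 0.05 on average, a mean raised by Acot5 and Pdk4, both high there. Of the 42, 9 were highest and 10 lowest in mouse 5, against 19.2% and 21.6% of tested genes. Whether the targets followed Ppara was not tested. In mice 1 to 5 the values of Acot5 were 7.02, 8.81, 6.11, 7.39 and 8.71. Those of Pdk4 were 10.95, 11.62, 9.75, 10.69 and 11.95. Both were high in mice 2 and 5 and lowest in mouse 3. Cpt1a, of mitochondrial fatty acid import, spanned 1.08-fold in the same livers.

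Genes that supply or bind PPAR ligands had 0 of 16 tested members past the threshold in limma, with 4 at an unadjusted p under 0.05 and a median SD of 0.16. The fatty acid-binding protein gene Fabp5, by the brighter of its 2 probe sets, had the widest spread (3.03-fold, SD 0.60, limma adjusted p = 0.0689). It was 10.22, 9.75, 10.55, 9.84 and 8.95 in mice 1 to 5. Both Fabp5 and Ppara were lowest in mouse 5. Fasn, which encodes fatty acid synthase, was 12.23, 11.67, 11.93, 11.20 and 11.13 (SD 0.47, limma adjusted p = 0.0763) and was lowest in mouse 5 too. Fabp4, the fatty acid-binding protein of fat cells and macrophages, was lowest in mouse 1 instead, at 9.64 against at least 9.84 elsewhere. Over the list, 9 of 16 genes were lowest in mouse 5, against 21.6% of tested genes.

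Coregulators and other partners held no call. Of 24 coregulator genes 22 were tested and 0 passed in limma, 0 also at an unadjusted p under 0.05, with a median SD of 0.12. The widest were Nrip1 (SD 0.26), a corepressor of fat and liver, the arginine methyltransferase gene Prmt1 (0.23) and Pprc1 (0.21), the relative of PGC-1 alpha. Mouse 4 was lowest for 16 of the 22, including Prmt1 and Pprc1, against 36.5% of tested genes. Of other receptors that pair with RXR, 0 of 9 tested passed and 1 had an unadjusted p under 0.05, the xenobiotic receptor gene Nr1i2 (SD 0.23, limma adjusted p = 0.766). The thyroid hormone receptor genes Thra (0.20) and Thrb (0.16) came next, and like Rxrg both were lowest in mouse 4.

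Partners and targets of PGC-1 are set here against mouse 4, where Ppargc1a was highest. Of 20 tested genes 0 passed in limma and 3 had an unadjusted p under 0.05, namely Pck1, G6pc and Alas1. Pck1, of gluconeogenesis, was also highest in mouse 4, with 11.20, 11.20, 11.43, 11.85 and 11.48 in mice 1 to 5 (limma adjusted p = 0.404). G6pc, which releases glucose from the liver, was highest in mouse 3, at 12.60, and lowest in mouse 1, with a 1.52-fold span. Alas1, of heme synthesis, was lowest in mouse 3 at 10.76, with 11.61 or more in all other livers (limma adjusted p = 0.0908). Over the list the mean deviation in mouse 4 was -0.0079, and 4 of the 20 were highest there, against 8.47% of tested genes.

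Genes of the response to glucagon, cAMP and glucocorticoids, signals that induce Ppargc1a and Lpin1 in fasting, had 0 of 19 tested past the threshold and 7 at an unadjusted p under 0.05 in limma, with a median SD of 0.18. Sik1, a cAMP-induced kinase gene, was 8.52, 9.11, 8.00, 9.25 and 9.47 in mice 1 to 5 (SD 0.60, limma adjusted p = 0.0842). Mice 1 and 3, the lowest for Sik1, were the highest for Lpin1. Igfbp1 (SD 0.44), which insulin represses, was lowest in mouse 1, and Per1 (SD 0.40), a clock gene that glucocorticoids induce, was highest in mice 4 and 5 at 7.43.

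Genes of glycerolipid synthesis, the pathway of the lipin enzymes, had 0 of 15 past the threshold in limma and 3 at an unadjusted p under 0.05. Gpam, of the initial acylation of glycerol phosphate, was 11.68, 11.31, 11.35, 10.87 and 10.95 in mice 1 to 5 (SD 0.33, limma adjusted p = 0.251). Agpat2, the acyltransferase of the next step, was 11.91, 11.70, 11.88, 11.26 and 11.11 (SD 0.36, limma adjusted p = 0.168). Like Lpin1, both were highest in mouse 1 and next in mouse 3, but unlike Lpin1 both were higher in mouse 2 than in mice 4 and 5. Mogat2 (SD 0.29) was highest in mouse 5. The relative Lpin2 was even, at 11.05 ± 0.07 (SD, n = 5).

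Genes downstream of or related to CREB3L3 had a median SD of 0.19, with 1 of 17 past the threshold and 8 at an unadjusted p under 0.05. The gene that passed, Apoa4, an apolipoprotein of fat-rich particles, was 10.69, 9.59, 9.73, 9.57 and 11.32 in mice 1 to 5, a 3.35-fold span. It was high in mice 1 and 5, neither of which was the highest or the lowest for Creb3l3. Mbtps1, a protease that releases CREB3L3, was even at 9.33 ± 0.08 (SD, n = 5).

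Of the targets of PPARG in fatty liver, 11 were measured and 10 tested. Of the 10 tested genes 0 passed in limma and 4 had an unadjusted p under 0.05, with a median SD of 0.21. The lipid droplet genes Cidec (9.71, 9.95, 9.41, 9.38 and 9.98 in mice 1 to 5) and Plin5 (8.62, 9.04, 8.47, 8.40 and 8.97) were both high in mice 2 and 5 and lowest in mouse 4. Pparg was low in mice 2 and 4 and high in mice 1, 3 and 5, so they ran with it in mice 4 and 5 and opposite to it in mice 2 and 3. Pltp, the phospholipid transfer protein gene, had the widest spread (SD 0.39, limma adjusted p = 0.139) and was lowest in mouse 5 at 10.99.

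**Figure D4:**
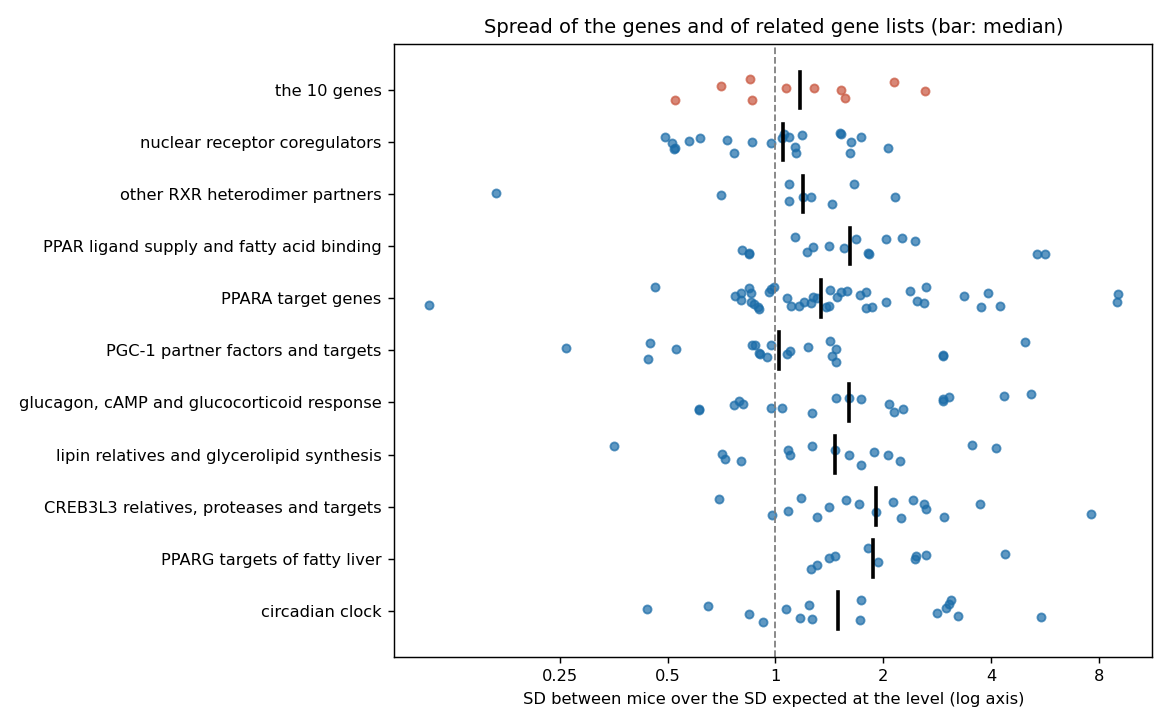
SD between mice divided by the SD expected at the level (x axis, log axis) for the 10 genes (red) and for the tested genes of 10 related lists (blue); each point is a gene, bars are medians and the dashed line marks the expected SD. The median of the 10 genes is 1.18, against 0.965 over all tested genes, and Acot5, Pdk4 and Apoa4 lie farthest to the right.

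Genes with a pattern like that of the 3 widest members were sought among tested genes with a similar SD (a ratio of at least 0.8 either way), by the root mean square difference of deviations over the 5 mice. The names are a description of 5 livers. For Lpin1, out of 751 candidates with a median difference of 0.342, the closest were C4bp (0.0585), which encodes a complement regulator, Gamt (0.0714), of creatine synthesis, Gbp2b (0.0722), Slc2a5 (0.0763), a fructose transporter gene, and Tlr12 (0.0810). C4bp was 10.75, 10.05, 10.59, 10.08 and 10.18 in mice 1 to 5. For Pparg, out of 1339 candidates, they were Pde4b (0.0423), a cAMP phosphodiesterase gene, Gm5577 (0.0454), Proser3 (0.0513), Cd74 (0.0550), the invariant chain gene of antigen-presenting cells, and Ackr1 (0.0610). Cd74 was 9.24, 8.91, 9.26, 8.88 and 9.35 in mice 1 to 5. For Ppargc1a, out of 2546 candidates, they were Map2k6 (0.0315), Olfr642 (0.0356), Arfgef3 (0.0418), Scgb1b27 (0.0462) and Olfr372 (0.0464). All 5 had means between 5.77 and 6.20, close to the floor, and 2 of them are olfactory receptor genes of the kind that set it.

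**Figure D5:**
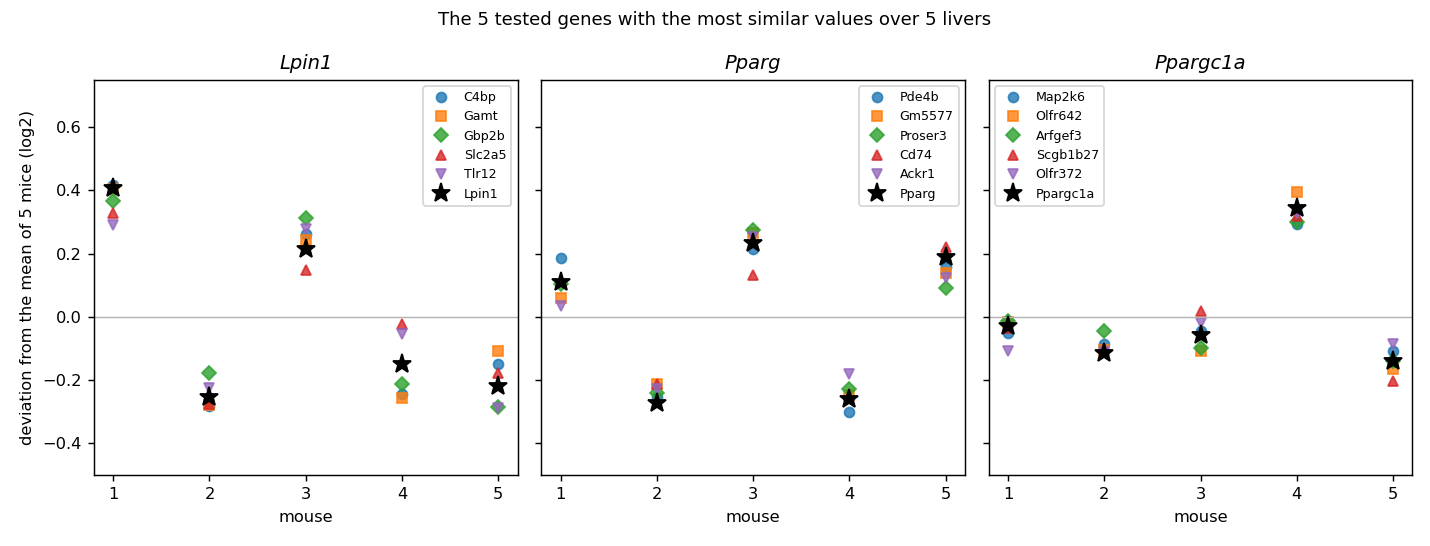
Deviation from the mean of 5 mice (y axis, log2 units) in each mouse (x axis) for Lpin1, Pparg and Ppargc1a (stars) and the 5 tested genes closest to each. Points of the 5 genes lie near the stars because they were chosen for that, with differences from 0.0315 (Map2k6) to 0.0810 (Tlr12).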

How the data were processed

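The deposited table holds log2 values that the authors made with RMA, a single value for every probe set on each array. From the submitters' processing notes, the software was Affymetrix Expression Console 1.2 and the method RMA; settings are not stated. RMA corrects background, equalises arrays and summarises probes, so differences near background are compressed. Probe sets were paired with genes by the platform annotation: 21789 of 35556 had exactly 1 symbol. Several such probe sets were found for 999 genes, among them Fabp5, Ciart and Fga. The brightest on average was used for these, and the others are not given except for Ppargc1a. An intercept-only model was fitted in limma 3.58.1 (R 4.3.3, statmod 1.5.0) to the 14589 probe sets with 1 symbol and a mean above 5.76, the 95th percentile of receptor probe set means. Each variance (4 degrees of freedom) was tested against that expected at the same mean (robust fit, prior degrees of freedom 6.21), with Benjamini-Hochberg adjustment at 0.05, and the fit was tested on simulated data. Python 3.11.15 with numpy 2.4.6 and pandas 2.3.3 made the summaries.

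All 10 genes were named, with each list gene that passed or otherwise the 3 with the largest SD, and the 5 genes most like each of the 3 widest members; from each of the 9 cell type lists the gene with the largest SD was eligible. Some other list genes (Cpt1a, Lpin2 and Mbtps1) and cell type markers were added once their values were known. The markers were Alb, Ttr, Adipoq, Lep, Plin1, Lipe, Retn, Slc2a4, Myh1, Myh2, Myh4, Slc4a1, Epb42, Cd3e, Cd79b, Des, Pdgfrb, Reln, Lrat and Rgs5. The members and lists were chosen with earlier results of these data known. Arrays carry no molecule counts, and precision is limited by there being 5 arrays. Alternatives were other scalings, filters, variance fits, floors and summaries, and each mouse left out.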

Additional observations from a re-analysis of the deposited data

Results flagged for a closer look

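In 9 of the 60 named genes 1 mouse lay apart from the other 4, with a gap to its nearest neighbour of more than 0.71 of the range (Dixon's 95% value for 5 samples). Chance flags about 1 in 20 such groups, and 5.65% of all tested genes had such a gap. Ppara was low in mouse 5 (0.8563 of the range). Ppargc1a was high in mouse 4 (0.7743). Map2k6 (0.8433), Olfr372 (0.7909), Olfr642 (0.7362) and Arfgef3 (0.7104) were high in mouse 4 too, which follows from their choice as genes like Ppargc1a. Alas1 was low in mouse 3 (0.7724). The muscle marker Mb (0.7699) and the macrophage marker Adgre1 (0.7411) were high in mouse 1.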

How the results depend on the processing

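The number of the 10 genes with a variance above expectation was 0 under all 14 alternatives, left-out mice included, where 0 to 2 had an unadjusted p under 0.05 in limma, and their smallest adjusted p was 0.378 (Lpin1, without mouse 5). All 10 stayed above the floor with the 90th or 99th percentile as the floor, with quantile normalization or median centring, with probe sets averaged, and without any 1 mouse. For the 234 tested genes of the pathway and cell type lists together, 3 passed with the settings reported. Centring each array on its median gave 10, and the count was 1 without the trend on level, 0 without the robust step (45 at an unadjusted p under 0.05) and 0 when all probe sets were tested with or without 1 symbol (28 at an unadjusted p under 0.05); it lay between 0 (50 at an unadjusted p under 0.05, without mouse 4) and 7 (without mouse 5) when 1 mouse was left out. The causes were not tested. Of 829 pairs of a named gene and a setting, 800 kept their side of the threshold, 16 lost a call (of Acot5, Apoa4 and Pdk4) and 13 gained one (of Alas1, Alas2, Ciart, Fabp5, Fasn, Pltp and Sik1). Centring on the median deviation of the tested probe sets was chosen after seeing the data. No paired analysis was possible because the samples analysed here form 1 group.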

Other observations

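Clock genes, which set daily rhythms of liver metabolism, numbered 19, of which 16 were tested. In these, 0 passed in limma and 6 had an unadjusted p under 0.05, against 6.38% of tested genes, with a median SD of 0.18. Ciart, a repressor of the clock, was 7.43, 6.90, 5.83, 7.54 and 7.48 in mice 1 to 5 (SD 0.72, limma adjusted p = 0.0761). Arntl, which encodes the activator BMAL1, was lowest in mouse 4 at 6.34 and 6.90 to 7.39 in the others, and Per3 was lowest in mouse 2 at 6.65.

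Among the remaining cell types, stellate (11 of 11 tested markers) and endothelial cell markers (10 of 10) had 0 genes past the threshold and 0 at an unadjusted p under 0.05 in limma, with median SDs of 0.10 for both. Kupffer cell markers had 0 of 13 past the threshold and 7 at an unadjusted p under 0.05, against 6.38% of tested genes. Adgre1 was 9.24 in mouse 1 and no more than 8.47 elsewhere. Of the muscle markers 4 of 6, of the cholangiocyte markers 2 of 5, of the hepatocyte markers 1 of 10, of the adipocyte markers 1 of 5, of the erythroid markers 1 of 2 and of the lymphocyte markers 0 of 3 had an unadjusted p under 0.05. The share of all tested genes was 6.38%, and 0 passed after adjustment in each list. Fga, Stab2, Hgf, Epcam and Ptprc had the largest SD of their lists (0.25, 0.15, 0.21, 0.29 and 0.22).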
